A study of Homo sapiens with 6 samples.

Results

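The 31 peaks described here lie on chromosome 11 between 77.9 and 78.2 Mb of GRCh38, around NDUFC2 and its neighbours THRSP and KCTD14. They were chosen by position: every peak of the 3 V5 lists that touched this 300 kb window was taken, 14 of 1599 in replicate 1, 7 of 2557 in replicate 2 and 10 of 1887 in replicate 3. The window was picked because it held many peaks, so their number, order, width, rank and agreement are given as a description and carry no test. None of the 31 peaks touched THRSP or KCTD14. They sat over the first part of NDUFC2, the stretch upstream of it and a long noncoding RNA gene, LOC105369401, and the place is called the NDUFC2 locus below.

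The libraries came from chromatin immunoprecipitation and sequencing (ChIP-seq) of HepG2-TAF2-V5, a clone of the established human liver cancer line HepG2 in which TAF2 carries the V5 peptide tag. The labels describe 3 libraries recovered with the V5 antibody and 3 controls, which are called input in one label and IgG in another, and no drug, genotype or time separates them. All 6 libraries come from the tagged clone, the labels do not say whether replicates were separate cultures, and read totals are not part of the lists, which leaves depth unknown. Control peaks were not analysed here, so the values below have no control beside them. Of 12 hepatocyte marker genes, 6 had a peak on the gene or no more than 1000 bp from it in at least 2 libraries (APOA1, APOA2, APOB, FABP1, HNF4A and SERPINA1), against 3.76% of protein-coding genes, and ALB and TTR had none in any library. Peaks do not measure expression, so the cell type was not checked further.

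TAF2 is a subunit of TFIID, the complex that recognises core promoters and helps to place RNA polymerase II at the transcription start. NDUFC2 encodes an accessory subunit of the membrane arm of mitochondrial complex I, which passes electrons from NADH to ubiquinone and is needed in hepatocytes as in other respiring cells. THRSP, the thyroid hormone responsive gene also known as SPOT14, encodes a small protein that promotes fatty acid synthesis in liver and fat and is induced by thyroid hormone and by carbohydrate feeding. KCTD14 encodes a protein with a potassium channel tetramerisation domain, and transcripts that join NDUFC2 and KCTD14 are annotated as the readthrough gene NDUFC2-KCTD14.

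To show where peaks lay relative to the gene starts, the 250 bases before the starts of NDUFC2 and THRSP are given, as given by RefSeq on GRCh38.p14. NDUFC2 has no entry of its own in the promoter table. The readthrough gene begins at the same base as the upper end of NDUFC2, 78079862, on the minus strand, and its entry was used. Capitals in the NDUFC2 sequence mark the 87 bases that lay inside a peak of replicate 1. Capitals in the THRSP sequence, where no library had a peak, mark the letters of CCAAT boxes, read here on the opposite strand as ATTGG.
NDUFC2, chr11:78079863-78080112, minus strand: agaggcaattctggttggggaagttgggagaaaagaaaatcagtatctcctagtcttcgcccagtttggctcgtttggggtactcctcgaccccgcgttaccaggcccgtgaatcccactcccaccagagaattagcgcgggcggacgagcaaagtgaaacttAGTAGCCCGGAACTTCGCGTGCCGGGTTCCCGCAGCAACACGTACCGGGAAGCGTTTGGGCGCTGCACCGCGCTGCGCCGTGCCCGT
THRSP, chr11:78063611-78063860, plus strand: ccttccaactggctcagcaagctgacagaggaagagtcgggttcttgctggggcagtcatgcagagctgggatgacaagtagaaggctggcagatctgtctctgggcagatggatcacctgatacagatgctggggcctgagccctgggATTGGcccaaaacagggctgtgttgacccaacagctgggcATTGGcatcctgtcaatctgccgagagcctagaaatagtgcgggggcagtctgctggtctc
Motifs were searched on both strands of these 250 bases. The GC box GGGCGG occurred once before NDUFC2, beginning 111 bases before the start and outside the capitals, and 53.7% of 22156 protein-coding promoter sequences of the same length hold it. CCAAT occurred 2 times before THRSP, beginning 101 and 61 bases before the start, and is held by 32.7% of the promoters. Neither sequence held TATAAA, found in 1994 of the promoters, or the E-box CACGTG, found in 7.37%. The NDUFC2 sequence held 24 CG dinucleotides and the THRSP sequence 3, against a median of 16 over all promoters.

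**Figure D1:**
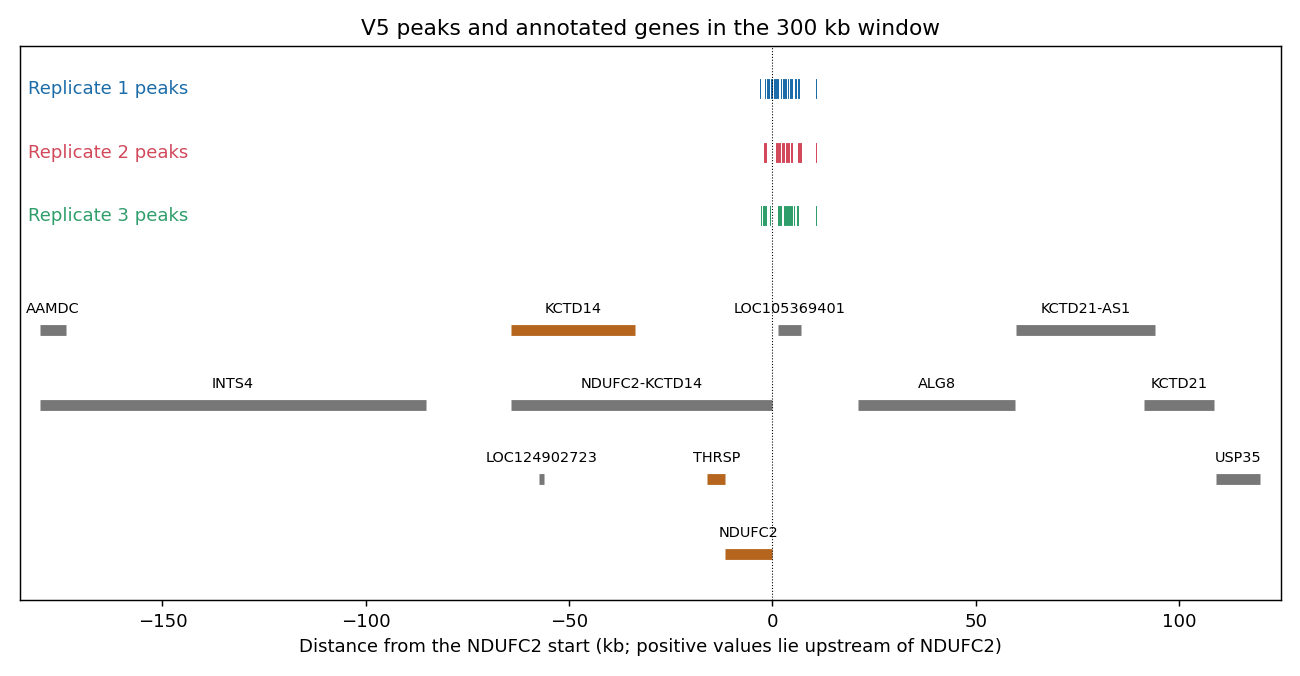
Peaks of the 3 V5 libraries (coloured bars) and annotated genes (grey, with the 3 named genes in brown) by distance in kb from the NDUFC2 start, with each gene cut at the window's edges. All 31 peaks lie within 15.0 kb around and upstream of the NDUFC2 start, and none touches THRSP, KCTD14, INTS4, ALG8, KCTD21 or USP35.

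All 31 peaks lay between 78075985 and 78090948, a stretch of 14964 bp or 4.99% of the window. The rest of the window held no peak. In all, 13 annotated genes overlap the window, 9 of them protein-coding. INTS4 (a subunit of the Integrator complex), ALG8 (a glucosyltransferase of N-glycan assembly), KCTD21 and USP35 (a deubiquitinase) had no peak over them or within 1000 bp in any library. The noncoding genes KCTD21-AS1, LOC124902723 and RNU6-126P had none either. The nearest protein-coding genes beyond the window were RSF1 below, 203753 bp from the closest peak of the locus, and GAB2 above, 124345 bp from it. The outermost peaks inside the window began at 78075985 and ended at 78090948, both in replicate 3. Below the window the next peak was one of replicate 2 that ended at 77834200, 244 kb before that library's first peak of the locus. It began at 77834046 and lay over RSF1 and AAMDC, whose spans overlap there, and AAMDC, which crosses the lower edge of the window, had no other. Above it the next were peaks of replicates 1 and 2 that began at 78601174 and 78601161, 510.3 and 510.2 kb after the last peak of the locus.

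THRSP (78063861 to 78068351, plus strand) overlaps the 3′ end of NDUFC2 by 55 bp, and no base of it was under a peak. The nearest peak to its start lay 13.1 kb away in replicate 1, 14.0 kb in replicate 2 and 12.1 kb in replicate 3, and these peaks were inside NDUFC2. The distance from the nearest peak to any part of THRSP was 8600, 9483 and 7634 bp. KCTD14 (78015715 to 78046191) was also without a peak, and its upper end lay 30.8, 31.6 and 29.8 kb from the nearest peak. Of the 3 genes, NDUFC2 alone had peaks. The readthrough gene NDUFC2-KCTD14 (78015715 to 78079862) spans all 3 and shares the start of NDUFC2, so its 4, 1 and 4 overlapping peaks in replicates 1, 2 and 3 are those of NDUFC2 and cannot be told apart from them.

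Within 1000 bp of an annotated end, NDUFC2 (78068297 to 78079862) had 3 peaks in replicate 1, 1 in replicate 2 and 2 in replicate 3, all at its start. Of 19987 protein-coding genes, 1.37% had such an end peak in 2 or more libraries, and since the locus was chosen for its peaks nothing is read from that share. The start base itself was under a peak in replicate 1 alone, a peak of 331 bp from 78079619 to 78079949 with a fold of 5.15 and a summit 183 bp inside the gene. In replicate 3 the nearest peaks lay on either side of the start, 328 bp inside the gene (fold 5.33) and 343 bp upstream (fold 3.82). In replicate 2 the nearest peak began 942 bp upstream (fold 7.47) and the next ended 1338 bp inside the gene (fold 5.50). The start thus fell in a gap between peaks in replicates 2 and 3. Fold is the authors' enrichment of a peak over the background of their peak caller, a linear ratio, and serves here for description and ranking inside each list. The NDUFC2 promoter window (250 bases before to 50 after the start) was touched in 1 library. Of 22132 such protein-coding windows, 2.47% were touched in at least 1 library and 0.66% in at least 2. In the 2001 bp centred on the start, 1237 bp were under peaks in replicate 1, 59 bp in replicate 2 and 508 bp in replicate 3. No base of this stretch was under peaks of all 3 libraries. The nearest such bases lay 1462 bp inside the gene and 1354 bp upstream of it. With a limit of 250 bp from an end in place of 1000 bp, NDUFC2 had an end peak in 1 library, so its call rests on the wider limit.

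**Figure D2:**
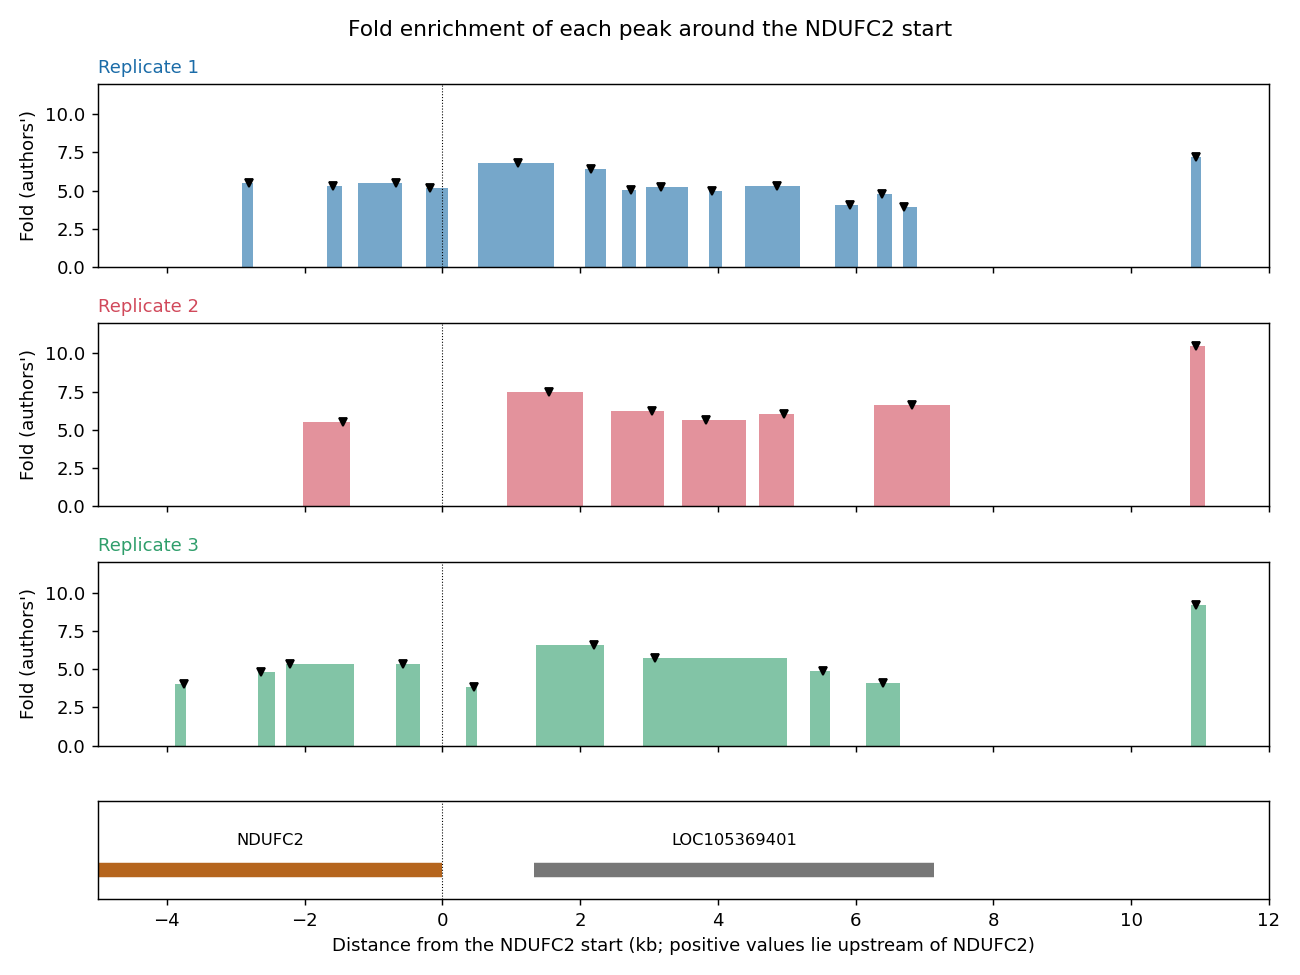
Fold enrichment of every peak (bar height, the authors' linear ratio; bar width is the peak, triangle the summit) by distance in kb from the NDUFC2 start, with 1 panel a library. Peaks flank the start in all 3 panels, the start is covered in replicate 1 only, and the peak near 10.9 kb has the highest fold of its panel in each library.

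The peaks fell into a block of closely spaced peaks and, beyond a gap, a solitary peak. The block held 13, 6 and 9 peaks in replicates 1, 2 and 3 and spanned 9796, 9400 and 10522 bp. Peaks covered 54.0, 54.2 and 54.8% of it, so the covered share was nearly the same although the number of peaks was not. Over the whole locus the number of peaks differed 2-fold between libraries, and the covered length (5444, 5308 and 5979 bp) by 1.13-fold. Replicate 2 had the most peaks in its list and the fewest here. Its peaks were wider, with a median of 774 bp against 262 bp in replicate 1 and 328 bp in replicate 3, and against 220, 223 and 223 bp among the other peaks of lists 1, 2 and 3. Peaks over 500 bp numbered 4 of 14, 5 of 7 and 3 of 10 at the locus, and made up 9.19, 7.70 and 8.002% of the lists. The widest, of 2096 bp in replicate 3, was matched or exceeded in width by 16 peaks of its list, itself included. Counts of peaks at this place therefore differ between libraries more than the length of chromatin they mark.

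Inside NDUFC2, replicate 1 had 4 peaks, replicate 2 had 1 and replicate 3 had 4, by the position of their summits. They lay in the part of the gene nearest its start, with summits 183 to 2813 bp inside it in replicate 1, 1445 bp in replicate 2 and 576 to 3745 bp in replicate 3. Their folds ran from 5.15 to 5.53 in replicate 1 and from 4.01 to 5.33 in replicate 3, and the peak of replicate 2 had a fold of 5.50. Peaks covered 10.9, 5.97 and 14.9% of the gene. The one merged region in the gene with peaks of all 3 libraries ran from 78077594 to 78078572, where folds were 5.29, 5.50 and 5.32. Those folds stood at percentiles 59.7, 57.6 and 58.6 of their lists (percent of the list with a fold at or below it), a mean of 58.6 ± 1.08 (SD, n = 3). Only 217 bp of the region lay under peaks of all 3 libraries. Its summits were at 78078282, 78078417 and 78077658 in replicates 1, 2 and 3, so the close folds do not mark 1 shared position.

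Upstream of NDUFC2, a stretch of 1332 bp separates its start from LOC105369401, an RNA gene without an assigned function in the tables used here, whose strand they do not give. Peaks covered 67.9% of this stretch in replicate 1, 29.4% in replicate 2 and 11.8% in replicate 3, and no base of it in all 3. Replicate 1 had here most of a peak of 1102 bp that reached into the noncoding gene, with a fold of 6.84 (percentile 87.7). In replicate 2 a peak of 1096 bp had its summit just within the noncoding gene, with a fold of 7.47 (percentile 88.2). In replicate 3 the stretch itself held a weak peak of 157 bp (fold 3.82, percentile 10.3), and the next peak, of 994 bp, had a fold of 6.58 (percentile 84.4). These 3 wide peaks belong to 1 merged region, from 78080378 to 78082235, that had the highest rank of the block, a mean percentile of 86.8 ± 2.06 (SD, n = 3). The region joined 4 peaks, among them 1 of 307 bp in replicate 1 (fold 6.41, summit 78082014). The mean takes the highest fold of each library, at summits 78080960, 78081411 and 78082063 in replicates 1, 2 and 3. It does not rank 1 shared position.

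LOC105369401 (78081195 to 78086995, 5801 bp) held most of the bases under peaks in each library, 3125 of 5444, 3776 of 5308 and 3886 of 5979 bp in replicates 1, 2 and 3. Peaks covered 53.9% of it in replicate 1, 65.1% in replicate 2 and 67.0% in replicate 3, and 1427 of its bases were under peaks of all 3 libraries. By summit it held 8 of the 14 peaks of replicate 1, 5 of the 7 of replicate 2 and 4 of the 10 of replicate 3. Their folds ran from 3.96 to 6.41, from 5.67 to 7.47 and from 4.10 to 6.58. Both ends of the gene had a peak within 1000 bp in each library. Of 15935 lncRNA genes of at least 2000 bp, 1.46% had a peak over them in at least 2 libraries. Ranked by the lowest covered share of the 3 libraries, LOC105369401 stood 2nd, between MALAT1 (62.8, 62.3 and 54.3%) and ZFAS1 (54.5, 51.6 and 60.1%). After ZFAS1 came MGC12916 (24.2, 17.6 and 31.6%) and then SNHG1 (32.8, 25.6 and 17.5%). MALAT1 is an abundant nuclear RNA, and ZFAS1 and SNHG1 are host genes of small nucleolar RNAs. This ranking was made after the peaks were seen to lie on the noncoding gene, and it is given without a test.

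**Figure D3:**
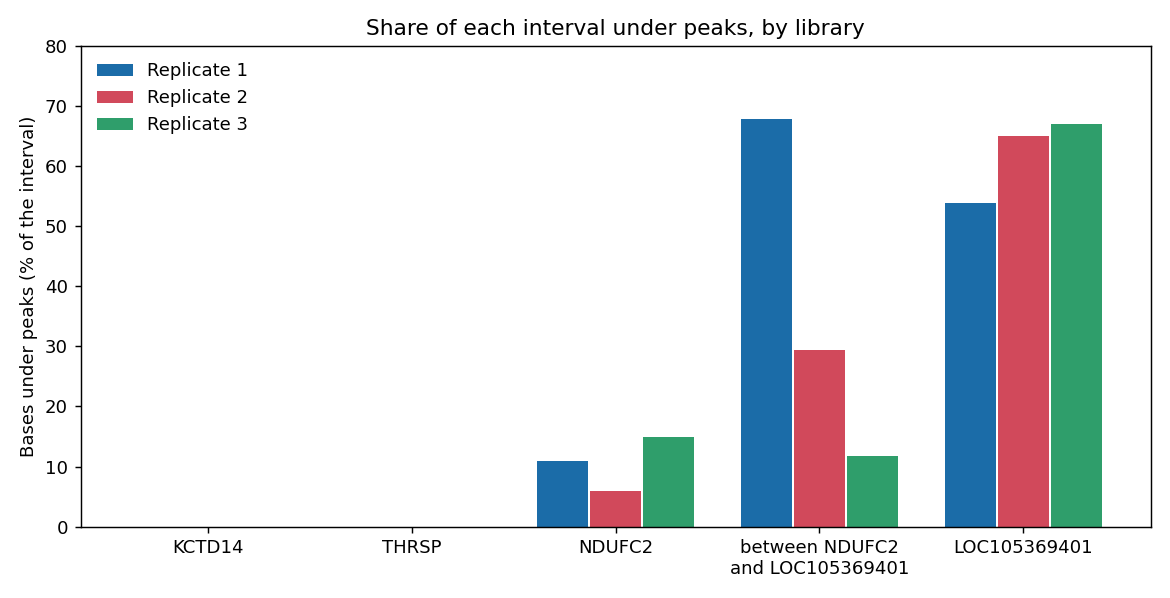
Percent of bases under peaks, by library, in the 3 named genes, the stretch between NDUFC2 and LOC105369401, and LOC105369401 itself. THRSP and KCTD14 are at 0 in all libraries, NDUFC2 lies between 5.97 and 14.9%, the stretch between runs from 11.8 to 67.9%, and LOC105369401 lies between 53.9 and 67.0%.

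The solitary peak lay 10.9 kb upstream of the NDUFC2 start, beyond the far end of LOC105369401, and 9998 bp from the 3′ end of ALG8 at its nearest edge. It was narrow, 152, 212 and 214 bp wide in replicates 1, 2 and 3, and stood 3983, 3481 and 4228 bp beyond the block. Its fold was 7.18, 10.5 and 9.22, the highest of the locus in each library, and ranked 165th, 47th and 56th in the lists of replicates 1, 2 and 3. The percentiles were 89.7, 98.2 and 97.1, a mean of 95.0 ± 4.59 (SD, n = 3). Its −log10 q was 8.11, 15.4 and 12.9, which was the highest of the locus in replicates 2 and 3 and second in replicate 1 to the wide peak upstream of NDUFC2 (8.73). Its summits were at 78090807, 78090805 and 78090804, within 3 bp of one another.

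Summits in the block were farther apart. From a block summit of replicate 1 the nearest summit was a median of 437 bp away in replicate 2 and 355 bp in replicate 3. From block summits of replicate 2 it was 126.5 bp in replicate 1 and 609.5 bp in replicate 3. From those of replicate 3 it was 184 bp in replicate 1 and 759 bp in replicate 2. In the series, 556 merged regions held exactly 1 peak of each library, and their summits spread over a median of 66 bp. A spread of 3 bp or less was found in 23 of these (4.14%), the solitary peak included. Among the 99 with no peak over 250 bp the median was 44 bp, and 7 (7.07%) had such a spread. The other region of the locus among the 556, inside NDUFC2 from 78077594 to 78078572, had a spread of 759 bp.

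Merging overlapping peaks gave 13 regions at the locus, 5 of them marked by 3 libraries, 1 by 2 libraries and 7 by a single one. Regions with at least 2 libraries were 6 of 13 (46.2%), against 36.7% of 3783 regions in the series. All 7 peaks of replicate 2 overlapped peaks of both other libraries, where 37.7% of its list overlapped replicate 1 and 41.0% replicate 3. An overlap needed only 1 bp, and these 7 peaks had a median width of 774 bp, against 223 bp in the rest of that list. Wider peaks overlap more easily, so no better agreement is read from this contrast. Of the 14 peaks of replicate 1, 9 overlapped replicate 2 and 9 overlapped replicate 3 (64.3% each, against 60.7 and 51.7% of its list). Of the 10 peaks of replicate 3, 6 overlapped replicate 1 and 5 replicate 2 (60 and 50%, against 44.3 and 55.6%). The libraries thus shared the fewer, wider peaks of replicate 2, and the peaks of a single library came from replicates 1 and 3. By bases, 9615 were under a peak of any library, 5325 (55.4%) under peaks of at least 2 and 1791 (18.6%) under peaks of 3. Over the series those shares were 39.1 and 18.8%. Peaks covered 54.0 to 54.8% of the block in each library, and peaks this dense overlap often wherever they lie. No better agreement is therefore read from the 55.4%.

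The shared regions differed in how evenly the libraries ranked them. The region over the middle of LOC105369401 (78082305 to 78085052) held 4, 3 and 1 peaks, with top folds of 5.29, 6.23 and 5.74 and a mean percentile of 68.2 ± 7.40 (SD, n = 3). The one over its far end (78086015 to 78087233) ranked least evenly, at percentiles 43.8, 79.7 and 17.9 (folds 4.81, 6.61 and 4.10), a mean of 47.1 ± 31.0. Of the single-library regions, the highest percentile was 66.1, a peak of replicate 1 inside NDUFC2 from 78076951 to 78077109.

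By fold the peaks of the locus ranged from percentile 15.9 to 89.7 of the list in replicate 1, from 57.6 to 98.2 in replicate 2 and from 10.3 to 97.1 in replicate 3. The median percentile of its peaks by fold was 58.4, 74.0 and 50.1 in replicates 1, 2 and 3, and by −log10 q it was 45.6, 65.8 and 40.2. Its median fold was 5.26, 6.23 and 5.08, against 5.01, 5.24 and 5.03 among the other peaks of each list. Peaks above the median fold of the list numbered 10 of 14, 7 of 7 and 5 of 10. Restricting the lists to peaks with −log10 q of at least 5 left 4 peaks of replicate 1, 6 of replicate 2 and 3 of replicate 3, so the library with the most peaks at the locus changed with that limit.

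**Figure D4:**
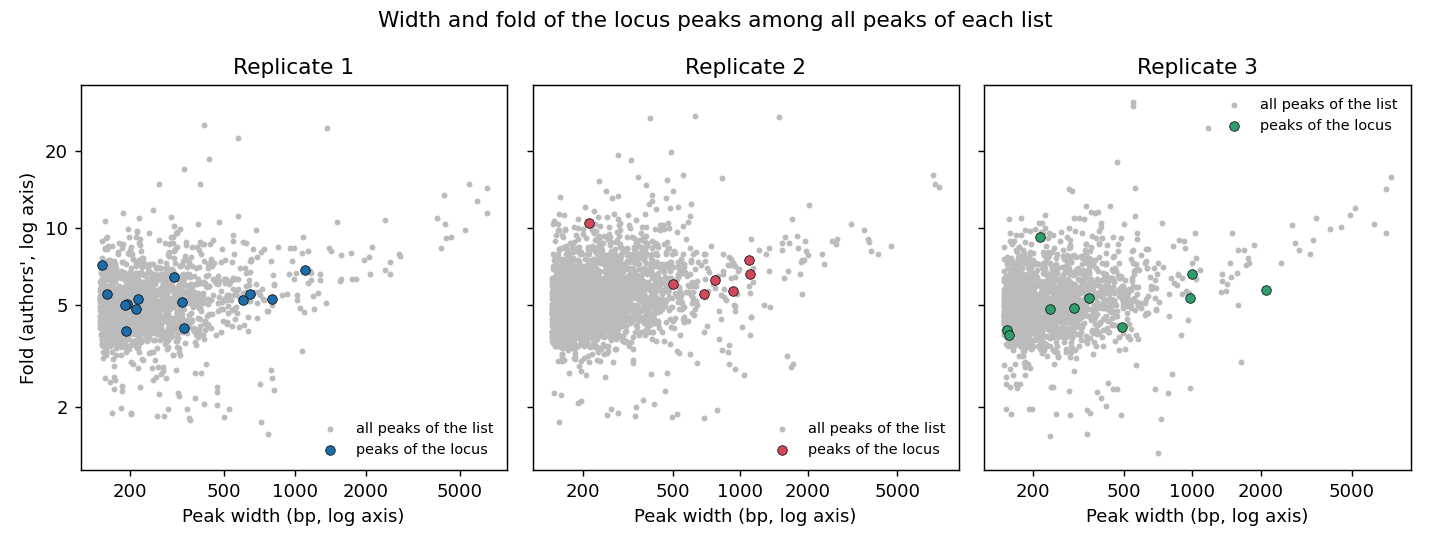
Width in bp and fold (the authors' linear ratio) of each peak, both on log axes, for the whole list (grey) and the locus (coloured), 1 panel a library. The locus peaks lie within the range of their lists by fold, 5 of the 7 of replicate 2 are over 500 bp wide, and the narrow peak of highest fold is the solitary one in each panel.

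So many peaks in 300 kb were rare in these lists, but the window was chosen for its peaks, so nothing is read from this. Among 30239 windows of 300 kb placed every 100 kb on chromosomes 1 to 22 and X, at least 14 peaks of replicate 1 were found in 16 windows, at least 7 of replicate 2 in 113 and at least 10 of replicate 3 in 34. All 3 conditions held in 16 windows (0.0529%), which overlap into 6 separate places, the locus itself among them. The mean window held 0.154, 0.25 and 0.183 peaks, and 82.4% of windows held none. With replicate 1 left out, 34 windows had at least as many peaks in replicates 2 and 3, against 16 with all 3 libraries.

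Joining peaks of the 3 lists that lay up to 5000 bp apart gave 2820 clusters, a rule chosen after the data were seen. The NDUFC2 cluster, with 31 peaks, ranked 7th by number of peaks and 7th by length, and 6 clusters (0.213%), itself included, had at least as many peaks in each library. Those ranked above it lay over TRIM71 (52 peaks), the mitochondrial genome (47), EML4 (42), TRIM24 (40), SNX5 with MGME1 (34) and TGFBR2 (33). Clusters with 5 or more peaks in each library numbered 23. In them the share of covered bases that was under peaks of all 3 libraries ran from 0 to 96.6%, with a median of 40.6%. At NDUFC2 it was 18.6%, lower than at SNX5 with MGME1 (61.1%) and TGFBR2 (50%), the next in rank above it, and 3 clusters had a lower share. Of the 11 such clusters that contain an annotated protein-coding start, 8 had a promoter window touched by peaks of at least 2 libraries, and NDUFC2, EML4 and IRF2BP2 had none. SNX5 with MGME1 had 2 of 2 windows touched and TGFBR2 had 2 of 3, again unlike NDUFC2 with 0 of 1. These differences between clusters were not tested.

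**Figure D5:**
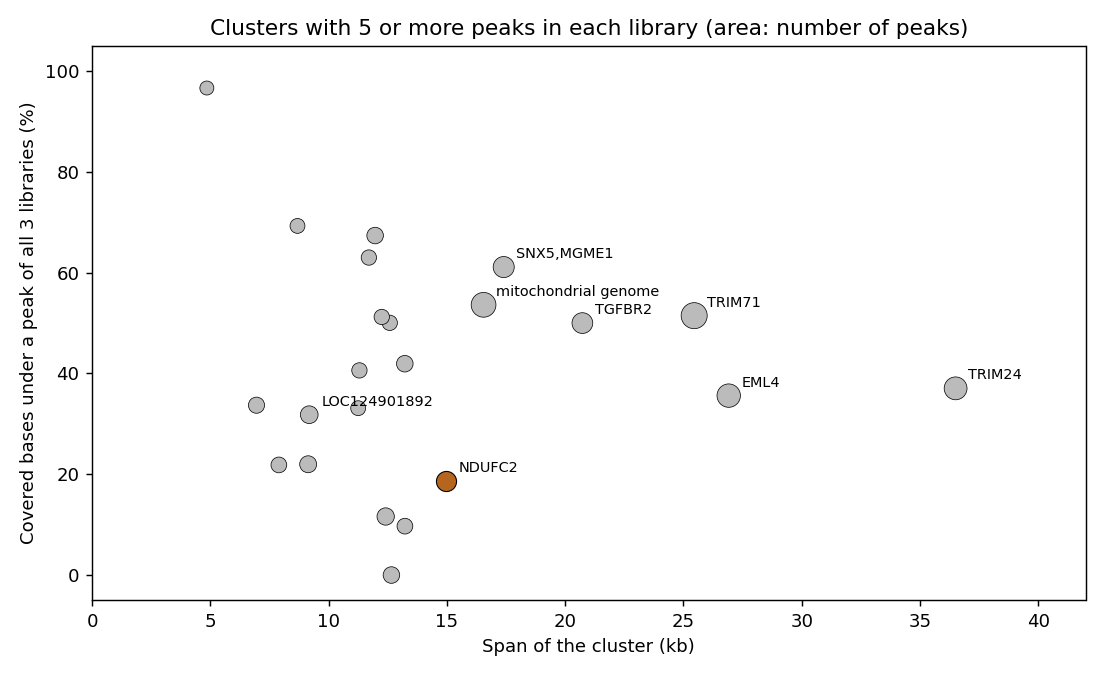
Clusters with 5 or more peaks in each library, by span in kb and by the percent of covered bases under peaks of all 3 libraries, with the area of a point for the number of peaks and the NDUFC2 cluster in brown. NDUFC2 lies at 15.0 kb and 18.6%, below the other clusters of more than 30 peaks.

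The pathways of the 3 genes were then read from fixed lists, beside the shares of all protein-coding genes (in at least 2 libraries, 1.37% with an end peak and 3.76% with a peak anywhere over the gene or within 1000 bp, and 8.67% with the latter in any library). Of 37 nuclear genes for complex I subunits, NDUFC2, around which the locus was chosen, was the only one with a peak in any library. Of 17 complex I assembly genes, NDUFAF6 had peaks over it in 3 libraries (highest folds 5.68, 6.24 and 6.64) and none had an end peak in at least 2. TIMMDC1 and COA1, also assembly factors, had a peak in replicate 2 alone (folds 3.77 and 5.33). Of 22 genes of the KCTD family and its relative TNFAIP1, none had a peak in any library. Against the any-library share of 8.67% over all protein-coding genes, this difference was not tested.

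Of 31 genes of fatty acid and triglyceride synthesis and its regulators, the pathway in which THRSP acts, 5 had a peak over them or within 1000 bp in at least 2 libraries (16.1%) and 1 had it at an end (3.23%). PKLR, the liver pyruvate kinase gene, was the one with an end peak, in 3 libraries, with folds of 6.21, 6.82 and 6.07. ACACA, which encodes the acetyl-CoA carboxylase of fatty acid synthesis, had a peak over it in 3 libraries, with folds of 4.68, 10.3 and 4.63 at percentiles 38.7, 98.0 and 35.5 of lists 1, 2 and 3. LPIN1, a phosphatidate phosphatase gene, had peaks in replicates 2 and 3 (highest folds 5.42 and 4.55), as did DGAT2, for the last step of triglyceride synthesis (4.30 and 4.91). ACSS2, an acetyl-CoA synthetase gene, had a peak in replicates 1 and 3 (5.07 and 6.10). Another 9 genes of the list, among them FASN, SCD, ACLY, SREBF1 and MLXIPL, had a peak in a single library, where 4.91% of all protein-coding genes had one. THRSP, its paralogue MID1IP1 and the thyroid hormone receptor genes THRA and THRB had none. Gene length was not accounted for in these shares, and a longer gene has more room for a peak. For the genes of all lists, overlap between the libraries' peaks was not examined, so peaks over 1 gene need not share a position.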

How the data were processed

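The authors deposited 1 narrowPeak list for each of the 3 V5 libraries, on GRCh38 per the labels. The aligner, peak caller, threshold and control behind them were not given in the sources used here. In the deposited lists the fold is a linear ratio per peak, the −log10 p and −log10 q are the caller's, and the score, 10 times the −log10 q cut to a whole number, was not used. Folds were ranked within each list, and folds, widths and counts set side by side across lists are descriptions, since the lists share no common scale of depth.

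Peaks sharing 1 bp were merged, and peaks of 3 lists were counted in 300 kb windows, within 1000 bp of gene ends (RefSeq, GRCh38.p14, 19987 protein-coding genes) and in promoter windows. Named were all genes of the window, the nearest protein-coding genes beyond it, and list members with a peak in at least 2 libraries. Genes named for having a peak in 1 library or none, and those of other clusters and lncRNA, were chosen after values were seen. The locus, members and lists were chosen with earlier results of these data known. Alternatives changed peak strength, overlap, window or gene-end limits, or left out a replicate.

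Tested on 20 simulated sets, the merging step recovered all 20 implanted regions in each, and the window counts and gene-end calls were also recovered. The implanted peaks lay at nearly the same place in all 3 libraries, unlike the offset peaks of the locus. The steps for clusters, covered bases, summit spread and noncoding genes were not tested this way. Calculations used Python 3.11.15, numpy 2.4.6, pandas 2.3.3 and matplotlib 3.10.9.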

Additional observations from a re-analysis of the deposited data

How the results depend on the processing

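With −log10 q of at least 5, the locus held 4, 6 and 3 peaks in replicates 1, 2 and 3, and 43 windows had at least as many. At that limit 3 regions were shared by at least 2 libraries, all 3 of them in 3 libraries. With the strongest 1000 peaks of each list, the locus held 12, 6 and 5 peaks in replicates 1, 2 and 3, and 6 windows had at least as many. In that setting 3 regions were in 3 libraries. Joining peaks up to 200 bp apart left 3 shared regions, all in 3 libraries. With 500 kb windows, the one around the locus held 14, 8 and 10 peaks in replicates 1, 2 and 3, and 26 windows had at least as many. Ranked by −log10 q, the median percentile in replicate 1 was 45.6. Leaving out each replicate gave 5 to 6 shared regions and 16 to 34 windows. Within 250 bp of an end, 0 of the 3 named genes had a peak in at least 2 libraries, and NDUFC2 had one under the other 6 alternatives run for it. Over all protein-coding genes the count with an end peak was 163 without replicate 2, 157 without replicate 3 and 175 at 250 bp. The other alternatives left counts within 1.5 times. No paired analysis was possible because the controls have no peak list here and no test compared groups. Depth is unknown, so a missing peak is not an absence of TAF2.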
